A study of Mus musculus with 3 samples.

Results

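Cxcl9, Cxcl10 and Cxcr3 are the 3 genes described here, of 31053 genes in the single-cell RNA count table: the ligands Cxcl9 and Cxcl10 and the receptor both bind. They were chosen by name, and their levels were followed over the 13 clusters that the authors deposited and over the 2 conditions. Groups within the most Cxcl10-rich large cluster, cluster 2, were then set against each other by whether a cell held a ligand UMI (unique molecular identifier, 1 captured mRNA molecule). The cells came from 1 brain hemisphere each of female C57Bl/6 mice aged 2 to 3 months, either bearing brain metastases about 2 weeks after carotid injection of E0771 cells, a mouse mammary carcinoma line, or naive, without injected tumour. No transgene or other treatment is named for either group. Brains were digested with papain, enriched for immune cells on Percoll, stained with 6 surface antibodies and 1 hashing antibody per brain, and pooled into 1 10x library.

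Cxcl9 and Cxcl10 are small secreted chemokines that attract activated T cells and NK cells carrying Cxcr3, a G protein-coupled receptor. Both are interferon-induced genes: Cxcl9 is known mainly as a target of interferon gamma, while Cxcl10 also answers to type I interferon and to NF-kB. In the brain, microglia, infiltrating monocytes and macrophages, astrocytes and endothelial cells can all make Cxcl10.

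The ligand genes lie close together on mouse chromosome 5 (RefSeq, build GRCm38.p6, which corresponds to mm10). Cxcl9 (gene ID 17329) spans chr5:92321331-92328079 and Cxcl10 (gene ID 15945) spans chr5:92346638-92348889, both on the minus strand, with 18558 bases between them. Cxcr3 (gene ID 12766) lies at chrX:101731535-101734147, also on the minus strand. The promoter windows of the ligands, from 250 bases before to 50 bases after the annotated start, are shown because the cells holding each ligand differed in interferon and inflammatory genes. The capitals mark letters that match the interferon-stimulated response element core (GAAA, any 2 bases, GAAA), the NF-kB consensus or the 9-letter NF-kB core GGGANTTCC, all searched on both strands. The consensus and the 9-letter core overlap in the Cxcl10 window.
Cxcl10, chr5:92348840-92349139, minus strand, 5′ to 3′: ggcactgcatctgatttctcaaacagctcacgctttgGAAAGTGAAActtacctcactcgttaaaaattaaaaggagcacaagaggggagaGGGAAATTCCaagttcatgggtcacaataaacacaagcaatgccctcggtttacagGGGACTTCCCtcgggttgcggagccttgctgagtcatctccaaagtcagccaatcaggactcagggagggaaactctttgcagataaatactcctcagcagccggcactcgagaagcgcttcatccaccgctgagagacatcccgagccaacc
Cxcl9, chr5:92328030-92328329, minus strand, 5′ to 3′: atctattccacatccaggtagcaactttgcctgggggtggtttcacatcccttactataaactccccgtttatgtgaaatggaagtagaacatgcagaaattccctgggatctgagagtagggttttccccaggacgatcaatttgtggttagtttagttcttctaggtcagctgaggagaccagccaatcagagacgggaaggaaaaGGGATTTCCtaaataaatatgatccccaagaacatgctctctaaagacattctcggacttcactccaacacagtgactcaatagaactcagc

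In the Cxcl10 window the response element core begins 213 bases before the start, and the NF-kB consensus is matched at 159 and 103 bases before it. The Cxcl9 window holds the 9-letter core at 42 bases before the start and no match to the response element core. The Cxcr3 window matched none of these motifs. The gamma-activated site core (TTC, any 3 bases, GAA), also searched, was in none of the 3 windows and in 8.30% of all RefSeq windows. Of 32851 RefSeq windows of this length, 3.44% held the response element core, 4.51% the NF-kB consensus, 1.68% the 9-letter core and 0.183% both the response element core and the consensus. The motifs were picked with these sequences in view, and a match is a run of letters, not a measured binding site.

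The table held 12421 cells: 5360 and 6174 cells of the brains with metastases (metastasis 1 and 2) and 572 and 315 cells of the naive brains. The 4 brains gave 45724262, 57620835, 1691221 and 694223 UMIs. The design text speaks of 6 pooled brains, and the files hold 4 hashing antibodies. Cluster 2 raised 10 of 11 monocyte and 9 of 11 macrophage markers to at least 2 times their level in the other cells and to at least 50 CPM (UMIs of a gene per 1000000 UMIs of the same cells), so it is called monocyte- and macrophage-like; its median cell carried 116.5 CD45 and 147 CD11b antibody tags. Clusters 0, 1, 3, 4 and 5 raised 0 of 10 carcinoma markers and are called by number. They hold most of the UMIs, so each was set against a rest made mostly of the others. A marker that they share could hardly be raised by this measure. These carcinoma markers summed to 895 to 1124 CPM there, 1178 and 1496 CPM in clusters 7 and 9, and 182 CPM in cluster 2. Cluster 6 raised 10 of 10 endothelial markers and clusters 7 and 9 each raised 9 of 10 choroid plexus markers. Cluster 8 mixed T cell, NK cell, dendritic cell and MHC class II genes and cluster 10 was led by Lyz2, Plac8 and Saa3 with 943 CPM of carcinoma markers, so both are called by number. Cluster 12 raised 11 of 11 microglia markers but was led by the neutrophil genes S100a9, S100a8 and Camp, and is also called by its number. Choroid plexus RNA, chiefly Ttr, was found in every cluster, at 674 CPM or more.

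Cxcl10 RNA was concentrated in cluster 2. That cluster held 751 and 667 of the 1105 and 1112 Cxcl10 UMIs of metastasis 1 and metastasis 2, a share of 64.0% ± 5.6 (SD, n = 2). By comparison, cluster 3, led by the interferon-induced genes Usp18, Isg15 and Ifit1, held 126 and 223 UMIs, and cluster 12 held 17 and 29. The naive brains had 21 and 8 Cxcl10 UMIs in all, of which 3 and 0 were in cluster 2, where only 10 and 5 naive cells fell. Cells labelled naive also fell in clusters 0, 1, 3, 4 and 5: 40, 24, 14, 10 and 14 cells, with 2, 0, 5, 1 and 1 Cxcl10 UMIs. Those of cluster 0 carried 553610 of the 2385444 UMIs of all naive cells. Whether hashing gave these cells the right brain was not tested.

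Per UMI, Cxcl10 in the brains with metastases was highest in cluster 12, at 451 and 887 CPM, and then in cluster 2, at 492 and 290 CPM. The 2 clusters did not differ beyond the spread between brains. In metastasis 2, 28 of the 29 UMIs of cluster 12 sat in a single cell of 15782 UMIs, against a median of 1062 UMIs in the other cells of that brain and cluster. Next came cluster 8 at 108 and 50.8 CPM, cluster 10 at 64.8 and 58.1 CPM and the endothelial-like cluster 6 at 31.8 and 63.6 CPM, whose ranges overlap. Cluster 3 followed at 27.9 and 17.2 CPM and cluster 5, rich in mitochondrial RNA, at 24.1 and 5.77 CPM. The choroid plexus-like cluster 7 averaged 8.42 ± 6.88 CPM, and clusters 1 and 0 averaged 4.34 ± 0.04 and 2.15 ± 0.05 CPM. Clusters 11, 4 and 9 had means of 0.82 to 1.16 CPM and do not differ from each other beyond their spread. Cluster 2 stood above clusters 8, 10, 6 and 3 in both brains.

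**Figure D1:**
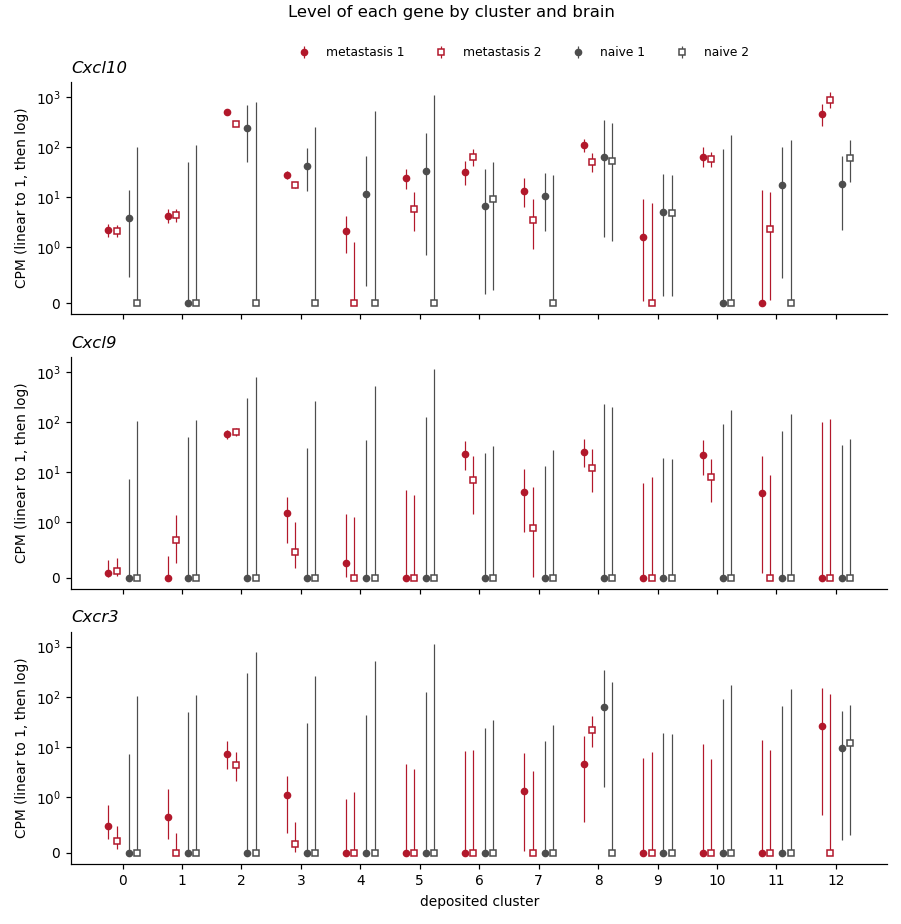
Level of each gene, in CPM, in each deposited cluster (horizontal axis) of the brains with metastases (red) and the naive brains (grey); circles are the first brain of each condition and squares the second, bars are exact 95% Poisson intervals of the count, and the vertical axis is linear up to 1 and logarithmic above. Cxcl10 stands highest in clusters 2 and 12, Cxcl9 in cluster 2, and the naive cells of most clusters are too few to give narrow intervals.

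In cluster 2, 223 of 718 cells (31.1%, exact 95% Clopper-Pearson interval 27.7 to 34.6) of metastasis 1 and 261 of 1063 cells (24.6%, interval 22.0 to 27.3) of metastasis 2 held a Cxcl10 UMI. Intervals cover counting error only. The UMIs were uneven between positive cells. In metastasis 1, 81 positive cells held 1 UMI and 52 held at least 5, with up to 24 in a cell. In metastasis 2, 124 held 1 and 42 held at least 5, with up to 18. The 22 and 26 cells with the most Cxcl10 held 33.6% and 32.4% of the UMIs.

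Depth differed between clusters: the median cell of cluster 3 had 13912.5 UMIs and that of cluster 2 had 1484.5. Had every cell been read to 500 UMIs, the expected share of Cxcl10-positive cells would be 16.0% and 11.3% in cluster 2, 12.2% and 7.36% in cluster 12, 3.93% and 2.50% in cluster 8, and 1.61% and 1.02% in cluster 3. The choroid plexus-like cluster 7 would have 0.253% and 0.116%, and had 1.31% and 2.70% without thinning at a median of 2633.5 UMIs. Clusters 0 and 1, with 2.04% to 3.24% of cells positive over all UMIs, had 0.110% to 0.177% at equal depth, near the share of cluster 7. In cluster 0 no cell held more than 2 and 3 Cxcl10 UMIs in metastasis 1 and 2. In cluster 1 the highest cell held 5 and 13, and in cluster 7 a single cell held 8 of the 10 UMIs of metastasis 1. In cluster 3, 6 and 16 cells of metastasis 1 and 2 held at least 5 Cxcl10 UMIs, and the highest held 17 in each brain.

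**Figure D2:**
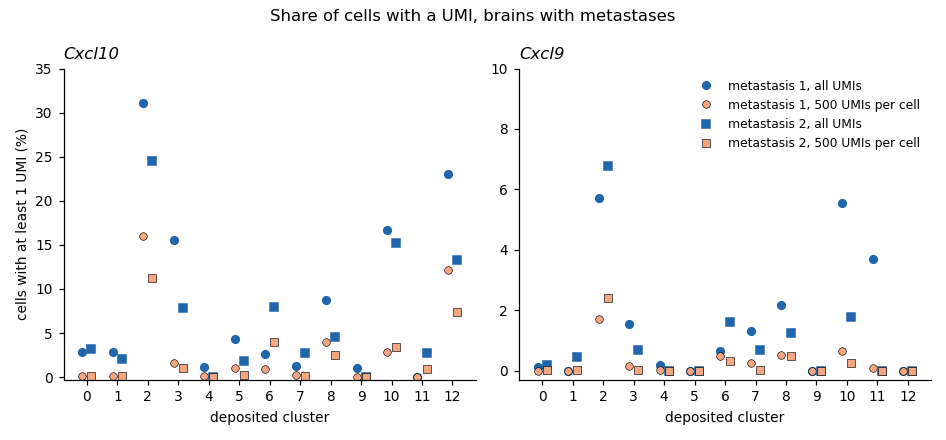
Share of cells with at least 1 UMI of Cxcl10 (left) and Cxcl9 (right) by deposited cluster in metastasis 1 (circles) and metastasis 2 (squares), with all UMIs (blue) and the share calculated for each cell read to 500 UMIs (orange). For Cxcl10, cluster 2 stays highest in metastasis 1 and 2 at equal depth, while cluster 3 drops to 1.61% and 1.02%.

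Whether tumour-bearing changed Cxcl10 within a cluster could be asked only where naive cells were present. Cluster 12 had 17 and 29 Cxcl10 UMIs (451 and 887 CPM) in metastasis 1 and 2. Naive 1 and 2 had 2 and 5 UMIs (18.5 and 60.7 CPM), and the groups did not overlap. For metastasis 2 that rested on 1 cell, which held 28 of the 29 UMIs, while the other positive cell held 1. The cell with 28 also held 59 macrophage, 13 monocyte, 11 microglia and 9 carcinoma marker UMIs. It was the only cell of cluster 12 with 10000 UMIs or more. Cxcl10 was higher in the brains with metastases by 3.94 on the log2 scale (SE 0.59, edgeR quasi-likelihood adjusted p = 0.00224) in a comparison in which 5.86% of 989 genes were called, 1.82% higher and 4.04% lower. The comparison was added because 1 brain had 15 cells in this cluster, under the minimum of 20. It rested on few cells: without cells of 10000 UMIs or more Cxcl10 no longer passed the filter on low counts, and the adjusted p was 0.169 without naive 1 and 0.055 without naive 2. Microglia markers summed to 5464 and 3118 CPM in cluster 12 of the brains with metastases, against 11484 and 10385 CPM in the naive brains, and neutrophil markers to 53.0 and 91.7 CPM against 621 and 33220 CPM. Among cells with under 1% neutrophil marker UMIs the log2 fold change was 3.65 (edgeR adjusted p = 0.00462). The part of the microglia marker difference in the result was not tested.

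In the endothelial-like cluster 6, 14 and 27 Cxcl10 UMIs were counted in metastasis 1 and 2, against 1 and 1 in naive 1 and 2, in 155 and 125 against 155 and 98 cells. The pooled level was 47.4 CPM against 7.63 CPM, a ratio of 6.21 with an exact 95% interval of 1.61 to 53.0. That interval covers counting error only and takes each UMI as an independent count. In metastasis 1 a single cell of the 4 positive cells held 9 of the 14 UMIs. In metastasis 2 the highest of 10 positive cells held 7 of the 27. At equal depth the expected share of positive cells was 2.47% ± 2.17 in the brains with metastases, against 0.60% ± 0.37 in the naive brains (SD, n = 2). The difference in share was not tested, and Cxcl10 was too sparse in cluster 6 for the gene-wide test. Cluster 8 had 108 and 50.8 CPM in metastasis 1 and 2 against 62.2 and 53.2 CPM, from 1 UMI each, in naive 1 and 2, and the change was not called (log2 0.75, edgeR adjusted p = 0.80). Neutrophil markers in cluster 8 summed to 23.0 and 29.0 CPM in metastasis 1 and 2 against 2923 and 2712 CPM in naive 1 and 2. T cell markers summed to 592 and 900 CPM against 3482 and 266 CPM. The part of these marker differences in the result was not tested. The choroid plexus-like cluster 7 had 13.3 and 3.56 CPM in metastasis 1 and 2, against 10.5 and 0 CPM in naive 1 and 2, so the groups overlapped. Cluster 10 had 58 Cxcl10 UMIs in the brains with metastases against 0 in the naive brains, at least 1.25-fold higher against a floor of 3 counts over the naive cells. In cluster 2 the 3 naive UMIs came from 2 of 10 cells of naive 1 (20%, interval 2.52 to 55.6) and none from 5 cells of naive 2, which gives a pooled ratio of 2.11 (interval 0.72 to 10.3). A difference between clusters in the Cxcl10 effect was called by edgeR in 0 of 9 testable pairs of clusters after adjustment, with 3 pairs at an unadjusted p under 0.05. All 3 pairs included cluster 12, where 28 of the 29 Cxcl10 UMIs of metastasis 2 sat in 1 cell. The smallest edgeR p was 0.00528, for cluster 9 against cluster 12 (adjusted p = 0.219). In such pooled cells, fewer cells of a type and less RNA per cell are separate quantities, and only the second is compared here.

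Within cluster 2, the cells that held Cxcl10 also held more RNA of type I interferon-induced genes and of inflammatory chemokines. To keep depth from deciding which cells were positive, each cell with at least 1000 UMIs was first thinned to 1000. This left 114 and 141 positive cells in metastasis 1 and 2, against 407 and 601 negative cells, of which 68 and 78 had held a Cxcl10 UMI before thinning. Counts were summed by brain and class and fitted with brain as a block. Of 3532 genes tested, 1.95% were called, 62 (1.76%) higher and 7 (0.198%) lower in Cxcl10-positive cells, 68 of the 69 moving the same way in both brains, and the median log2 fold change of all genes was -0.01.

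Antiviral genes led those named. Rsad2, which encodes viperin, stood at 911 and 722 CPM in positive cells against 252 and 204 CPM in negative cells of metastasis 1 and 2 (log2 1.84, SE 0.16, edgeR adjusted p = 2.9e-27). Ifit1, a sensor of foreign RNA caps, stood at 678 and 551 CPM against 190 and 164 CPM (log2 1.79, SE 0.18, edgeR adjusted p = 3.7e-21). Positive and negative sums do not overlap for either gene. Ifit3 was higher by 1.70, Ifit3b by 1.53, Ifit2 by 1.45 and Ifit1bl1 by 1.35. Cmpk2, a mitochondrial nucleotide kinase next to Rsad2, was higher by 1.54, the antiviral GTPase Mx1 by 1.49 and the oligoadenylate synthetase-like Oasl1 by 1.35. Ifi209, Ifi211, Ifi213 and Ifi205, interferon-inducible genes of the HIN-200 family, were higher by 1.42, 1.41, 1.34 and 1.33. Sp140, a chromatin reader of immune cells, was higher by 1.68 and Fpr1, the formyl peptide receptor, by 1.76.

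**Figure D3:**
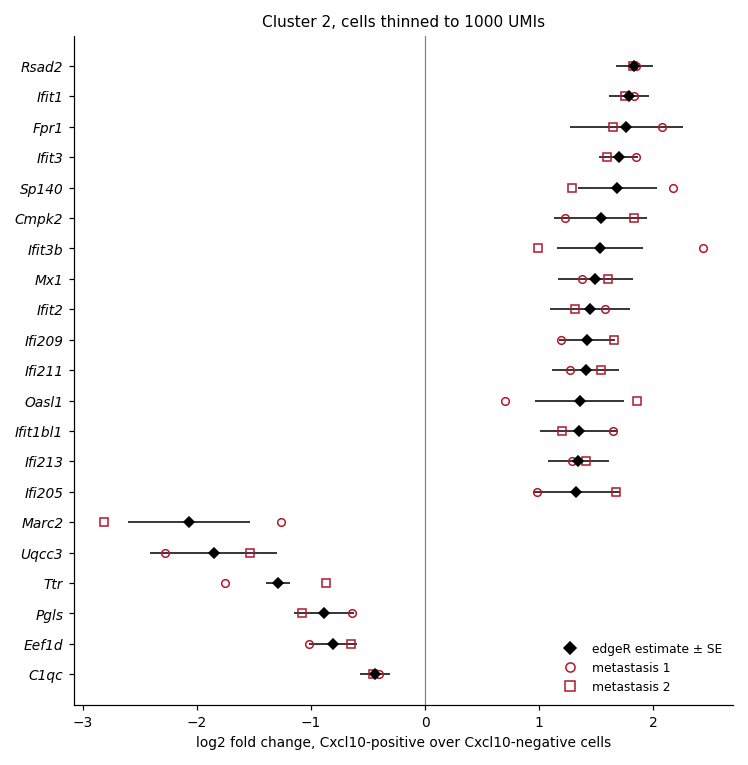
Log2 fold change of the named genes between Cxcl10-positive and Cxcl10-negative cells of cluster 2 after thinning to 1000 UMIs; black diamonds are the edgeR estimate with its SE, and the red circle and square are metastasis 1 and metastasis 2. Every named gene lies on the same side of 0 in both brains, with Rsad2 at 1.84 and Ttr at -1.29.

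By gene list, 16 of the 27 type I interferon genes tested were higher in Cxcl10-positive cells and 0 lower, with a median log2 fold change of 0.85 over the 27, against -0.01 over all genes. Isg15, a ubiquitin-like modifier, was at 2703 and 2492 CPM in positive cells against 1030 and 1124 CPM in negative cells of metastasis 1 and 2 (log2 1.26, SE 0.11). Irf7, the transcription factor that amplifies interferon production, was higher by 0.48. Bst2, which tethers virions at the cell surface, had a log2 fold change of -0.01 and was not called. Of the 19 interferon gamma genes tested, only Psmb10, an immunoproteasome subunit, was called (log2 0.80), and the list's median was 0.32. The log2 fold change was above 0 for 13 of the 19 and ranged from -0.36 to 1.93. Socs1 (1.93), Cd274 (0.94), Irf1 (0.91), Irgm1 (0.84) and Gbp2 (0.81) were higher in both brains but not called, at means of 30.3 to 119 CPM. The MHC class II genes of that list were not called: H2-Ab1 had a log2 fold change of -0.26 (edgeR adjusted p = 0.22) and H2-Eb1 of -0.36 (edgeR adjusted p = 0.066).

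Among the 20 genes of the NF-kB and inflammatory list, 6 were higher and 0 lower, with a median of 0.41. Ccl4, an inflammatory chemokine, stood at 2170 and 1374 CPM in positive cells against 716 and 683 CPM in negative cells of metastasis 1 and 2 (log2 1.30, SE 0.12, edgeR adjusted p = 9.9e-24). Il1b, the inflammatory cytokine, was higher by 0.63 and its antagonist Il1rn by 0.95. Nfkbia, the NF-kB inhibitor that NF-kB itself induces, was higher by 0.42. Ccl3 was higher by 0.71, but in metastasis 2 it was at 202 CPM in positive and 199 CPM in negative cells. Of the 13 other chemokines tested 5 were higher and 0 lower, median 0.26: besides Ccl3, Ccl4 and Ccl5 (0.44) these were the monocyte attractants Ccl2 at 0.97 and Ccl12 at 1.01. Acod1, the enzyme that makes itaconate in activated macrophages, was chosen after its values were seen; it stood at 77.5 and 85.4 CPM in positive cells against 10.7 and 5.47 CPM in negative cells of metastasis 1 and 2 (log2 3.35, SE 0.69, edgeR adjusted p = 2.6e-04), and with another random seed for the thinning it was not called (edgeR adjusted p = 0.090).

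Of 6 interferons and their receptors 0 were called, with a median of 0.21, and of 4 cell cycle genes 0, with a median of -0.23, beside 1.76% of all genes called higher. Of 6 T cell and NK cell effector genes 1 was called, Ccl5, which the inflammatory list also holds, and the median was 0.01. The dissociation and immediate early list gave 1 of 12, Atf3 (log2 1.05), with a median of 0.17. The lists overlap, and lower-expressed members did not pass the filter on low counts.

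Of the genes called lower in positive cells, Batf3 had the lowest log2 fold change (-3.57, edgeR adjusted p = 0.014). It stood at 0 and 7.76 CPM in positive against 67.1 and 47.4 CPM in negative cells of metastasis 1 and 2. Its mean of 30.6 CPM was under the limit set for named genes. Marc2 (log2 -2.07) and Uqcc3 (log2 -1.86), both of low level, came next. Ttr, the transthyretin gene of choroid plexus, fell to 1647 and 1894 CPM in positive cells, against 5551 and 3457 CPM in negative cells of metastasis 1 and 2 (log2 -1.29). The 10 choroid plexus markers summed to 1570 and 1837 CPM in positive against 5327 and 3298 CPM in negative cells, and carcinoma markers to 96.5 and 92.2 against 179 and 133 CPM. The part of choroid plexus RNA in the other differences was not tested. Among cells without Krt8 and Krt18 UMIs, carcinoma markers, 43 genes were higher, 40 of them among the 62. Pgls, Eef1d and the complement gene C1qc had log2 fold changes of -0.88, -0.81 and -0.44.

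Of the 62 genes that were higher, 52 have a RefSeq promoter window and 17 of these (32.7%) hold the response element core, as the Cxcl10 window does, against 154 of 2826 tested genes (5.45%) with a window. The NF-kB consensus was in 6 of the 52 (11.5%), against 6.86% of the tested genes. The gamma-activated site core was in 3 of the 52 (5.77%), against 8.39%. These shares are descriptions of letters in a window.

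DESeq2 called 5 genes higher and edgeR without the brain block 9, all among the 62. Isg15, Ccl4, Rsad2, Ifit1 and Ifit3 were called in both of these.

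The 11 monocyte markers summed to 8447 and 7085 CPM in positive cells of metastasis 1 and 2, against 6683 and 4997 CPM in negative cells, while the 11 macrophage markers summed to 9026 and 15028 CPM against 8617 and 18112 CPM. Plac8, Ms4a4c and Ly6c2, genes of inflammatory monocytes, were each called higher, by 0.49, 0.61 and 0.45. When cells were split by which of the 2 marker lists gave more UMIs, Cxcl10 stood at 662 and 598 CPM in the monocyte-leaning cells of metastasis 1 and 2 and at 331 and 220 CPM in the macrophage-leaning cells, a ratio of 2.00 and 2.72. At 500 UMIs the expected shares of positive cells were 17.9% and 16.2% in monocyte-leaning and 13.7% and 9.17% in macrophage-leaning cells. The split was chosen after the data were seen and cuts through a range: 73 and 92 monocyte-leaning and 37 and 64 macrophage-leaning cells lay within 2 UMIs of it, and the ratio was not tested. Within the macrophage-leaning cells alone, 4 genes were called higher with Cxcl10, namely Isg15, Ccl4, Rsad2 and Ifit3, and within the monocyte-leaning cells 34, of which 27 were among the 62.

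At the protein level, Cxcl10-positive cells of cluster 2 had median CD45 tags of 245 and 185, against 154 and 166 in negative cells of metastasis 1 and 2, among cells of at least 1000 UMIs. Tags were not thinned, and the median RNA depth before thinning was 2261 and 1890 UMIs in positive against 1895 and 2004 UMIs in negative cells. Median CD11b tags were 277.5 and 245 against 188 and 210. The costimulatory protein CD86 had medians of 12 and 11 tags against 8 and 11. Median CD3e tags were 0 in every class. The difference was in the same direction in both brains for CD45 and CD11b; with 2 brains it was not tested.

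Cxcl9 RNA also lay mostly in cluster 2, which held 86 of the 128 and 145 of the 175 Cxcl9 UMIs of metastasis 1 and metastasis 2, a share of 75.0% ± 11.1 (SD, n = 2). Its level there was 56.3 and 63.0 CPM, from 41 and 72 cells (5.71% and 6.77%), and 1.71% and 2.40% of cells would be positive at 500 UMIs. The next levels were 25.3 and 12.1 CPM in cluster 8, 22.7 and 7.07 CPM in the endothelial-like cluster 6 and 21.6 and 7.85 CPM in cluster 10, which overlap. All 10 UMIs of cluster 6 in metastasis 1 came from 1 cell. Cluster 12 had 0 Cxcl9 UMIs in 26 and 15 cells, which allows a level of up to 79.6 and 91.7 CPM, and cluster 3 had 1.55 and 0.46 CPM. Neither naive brain had a Cxcl9 UMI, in 572 and 315 cells, which allows a share of cells with a UMI of up to 0.524% and 0.952%. Of all cells of metastasis 1 and 2, 1.12% and 1.54% were positive, at a median depth of 7294 and 7707.5 UMIs per cell, against 1393.5 and 1230 UMIs in naive 1 and 2. At 500 UMIs the expected shares in metastasis 1 and 2 were 0.286% and 0.452%. The naive limits hold for the full depth of the naive cells, so they are not at equal depth with these shares. Whether the share of positive cells differed was not tested. In cluster 6, 13 Cxcl9 UMIs in the brains with metastases stood against 0 in the naive brains, at least 1.31-fold higher against a floor of 3 counts over the naive cells, with 10 of the 13 in the 1 cell named above. In cluster 2 the naive brains had only 10 and 5 cells, and a difference there was not tested.

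Within cluster 2, Cxcl9 was found more often in cells with Cxcl10 when all UMIs were used, less so at equal depth. With all UMIs, 24 of 223 and 34 of 261 Cxcl10-positive cells held Cxcl9, against 17 of 495 and 38 of 802 Cxcl10-negative cells of metastasis 1 and 2. The median depth of Cxcl10-positive cells was 2186 and 2048 UMIs, against 1395 and 1324 UMIs in negative cells. After thinning to 1000 UMIs the shares were 6.14% of 114 and 4.96% of 141 positive cells, against 2.95% of 407 and 3.99% of 601 negative cells, with overlapping intervals in each brain. In the fit across all genes, Cxcl9 was at 67.8 and 93.1 CPM in Cxcl10-positive cells against 45.6 and 54.7 CPM in negative cells and was not called (log2 0.69, SE 0.42, edgeR adjusted p = 0.64). With another random seed for the thinning the log2 fold change was 0.0051, so the thinned value depends on the draw. Without thinning Cxcl9 was called (log2 1.26, edgeR adjusted p = 1.1e-07).

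Cells of cluster 2 that held Cxcl9 had more RNA of 8 of 24 interferon gamma genes when all UMIs were used, and none of the 8 was called at equal depth. Only 19 and 31 cells stayed Cxcl9-positive after thinning, so the comparison was made on all UMIs, with 41 and 72 positive cells of median depth 3389 and 2879 UMIs, against 677 and 991 negative cells of 1482 and 1393 UMIs in metastasis 1 and 2. Of 6879 genes 0.698% were called, 31 (0.451%) higher and 17 (0.247%) lower. After thinning to 1000 UMIs, with 15 rather than 20 positive cells required, 1 gene was higher (Isg15) and Cxcl10 was not called (log2 0.55, edgeR adjusted p = 0.73). Without the brain block edgeR called 0 genes, with 176 higher at an unadjusted p under 0.05, and DESeq2 called 5: Isg15, H2-Ab1, H2-Aa, H2-Eb1 and Cd74.

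On all UMIs, among 24 interferon gamma genes 8 were higher and 0 lower, and the list's median was 0.53 against -0.02 over all genes. Without cells holding T cell markers, which left 28 and 53 positive cells in metastasis 1 and 2, none of the 8 was called: 1 gene was higher, Cxcl10, and 0 were lower. H2-Ab1, the beta chain of an MHC class II molecule, stood at 5388 and 5738 CPM in Cxcl9-positive cells against 3183 and 3824 CPM in negative cells (log2 0.67, SE 0.08). H2-Eb1 was higher by 0.65, H2-Aa by 0.63 and Cd74, the invariant chain, by 0.54. Gbp2, an interferon-inducible GTPase, stood at 212 and 230 CPM against 71.2 and 84.9 CPM (log2 1.49, SE 0.21). The immunoproteasome subunits Psmb9 and Psmb8 were higher by 0.65 and 0.44, and the Fc receptor Fcgr4 by 0.78.

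Outside that list, the serpin gene Serpina3g was higher by 1.65, Fam26f by 0.84, the noncoding transcript AW112010 by 0.75, Ly6a by 0.60 and the class I-like genes H2-T22 and H2-T23 by 0.70 and 0.59. Cxcl10 itself stood at 848 and 484 CPM in Cxcl9-positive cells against 469 and 271 CPM in negative cells (log2 0.84, SE 0.12, edgeR adjusted p = 1.3e-08). Of 29 type I interferon genes 3 were higher (Isg15 by 0.74, the nucleic acid sensor Zbp1 by 0.77 and Rsad2 by 0.58), and the list's median was 0.40. Of 22 NF-kB and inflammatory genes only Ccl5 was called (0.49), with a list median of 0.10, and of the 13 other chemokines only Ccl5, with a median of 0.01. None was lower in these lists. The remaining lists had 0 of 8 interferons and receptors, 1 of 11 effector genes (Ccl5), 0 of 13 immediate early genes and 0 of 11 cell cycle genes called, with medians of 0.13, -0.03, 0.05 and -0.47.

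**Figure D4:**
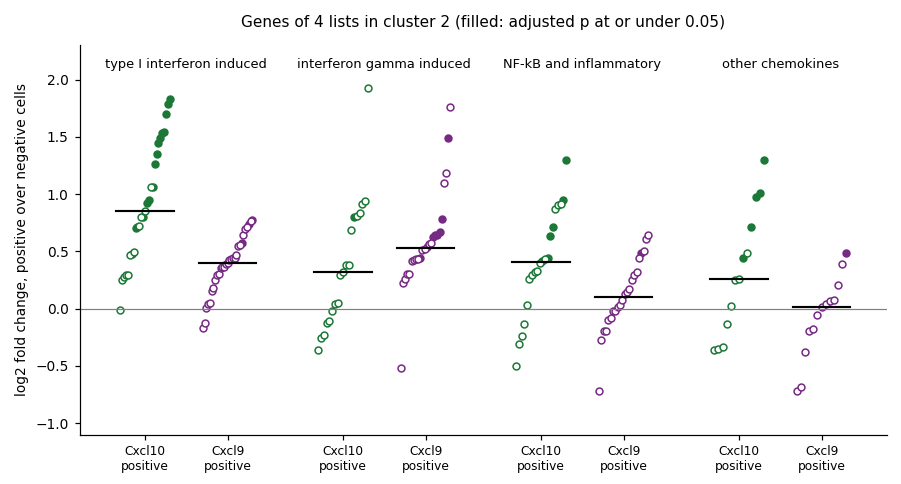
Log2 fold change of each tested gene of 4 lists between positive and negative cells of cluster 2, for Cxcl10 (green, thinned to 1000 UMIs) and Cxcl9 (purple, all UMIs); filled points have an adjusted p at or under 0.05 and black lines are medians. The type I interferon list has a median of 0.85 for Cxcl10 and 0.40 for Cxcl9, and the interferon gamma list 0.32 and 0.53; the comparisons use overlapping sets of cells at different depths, and the differences between them were not tested.

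Lower in Cxcl9-positive cells were the neutrophil granule genes Camp (log2 -4.15), Ngp (-2.11), S100a8 (-2.03) and S100a9 (-1.84). S100a8 was at 103 and 23.4 CPM in positive against 492 and 55.0 CPM in negative cells of metastasis 1 and 2, so most of this RNA was in metastasis 1. The 10 neutrophil markers summed to 432 and 84.4 CPM against 1483 and 192 CPM. Esx1, Rhox5 and Krt8 had log2 fold changes of -1.42, -1.39 and -1.36, and carcinoma markers summed to 87.6 and 127 CPM against 193 and 187 CPM. Serpinh1, Slpi and Phb2 had log2 fold changes of -1.01, -0.87 and -0.75. The part of neutrophil and carcinoma marker RNA in the other differences was not tested.

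**Figure D5:**
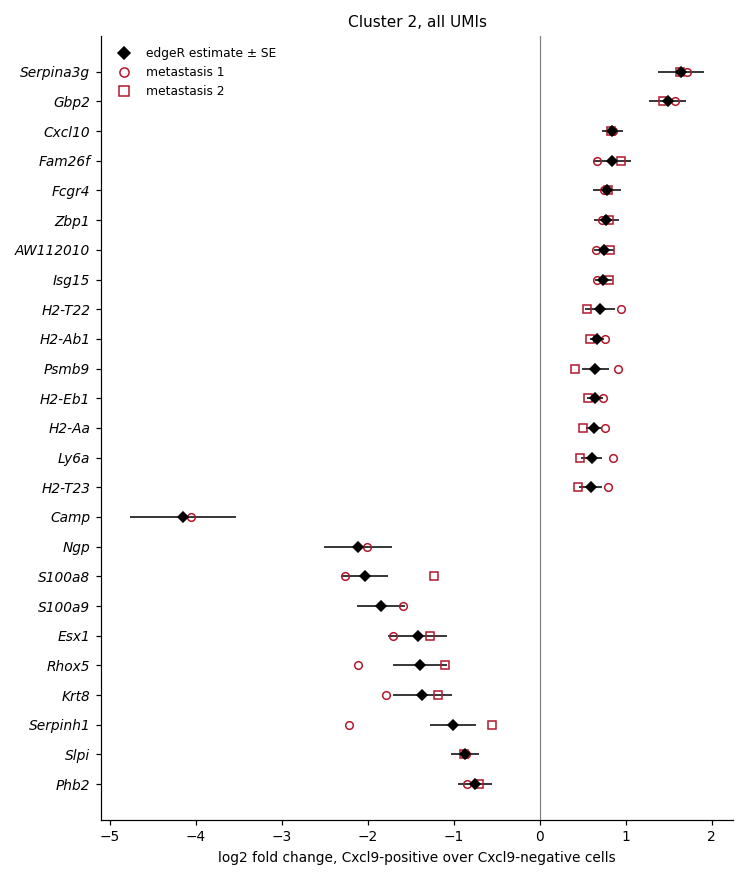
Log2 fold change of the named genes between Cxcl9-positive and Cxcl9-negative cells of cluster 2 with all UMIs; black diamonds are the edgeR estimate with its SE, and the red circle and square are metastasis 1 and metastasis 2 (not drawn where a sum is 0). Serpina3g (1.65) and Gbp2 (1.49) lie highest and Camp (-4.15) lowest.

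The genes higher with Cxcl10 and those higher with Cxcl9 had 7 in common, which is 11.3% of the 62 and 22.6% of the 31: AW112010, Ccl5, H2-T22, Isg15, Pnp, Rsad2 and Zbp1. The comparisons use overlapping sets of cells, 521 and 742 cells of at least 1000 UMIs for Cxcl10 and all 718 and 1063 cells for Cxcl9 in metastasis 1 and 2, and they differ in depth. Of the 31 genes higher with Cxcl9, 25 have a promoter window. Of these, 9 (36%) held the response element core and 8 (32%) the NF-kB consensus, against 4.66% and 6.49% of the tested genes. Cxcl10 is among the 25 and counts in both shares, and the motifs were picked with its window in view. The gamma-activated site core was in 6 of the 25 (24%), against 8.29%.

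Between the monocyte-leaning and macrophage-leaning cells, Cxcl9 had no common direction. In metastasis 1 it stood at 70.1 CPM in monocyte-leaning against 43.3 CPM in macrophage-leaning cells, and in metastasis 2 at 37.7 against 68.7 CPM, so the 2 brains ran in opposite directions (ratios of 1.62 and 0.55). Median CD86 tags were 23 and 17 in Cxcl9-positive against 6 and 7 in Cxcl9-negative cells of metastasis 1 and 2, at the unequal depths given above.

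The receptor Cxcr3 was near the limit of detection. The brains with metastases had 37 and 26 Cxcr3 UMIs in all and the naive brains 2 and 1. Cluster 8, which held T and NK cell genes, had 4.59 and 21.8 CPM in metastasis 1 and 2, from 2 and 9 UMIs, against 62.2 and 0 CPM in naive 1 and 2, from 1 and 0 UMIs. Cluster 2 had 7.20 and 4.34 CPM in metastasis 1 and 2, from 11 and 10 UMIs, and cluster 0 had 16 UMIs at a mean of 0.34 ± 0.20 CPM. All but 2 of these cells held a single UMI. The order of clusters 8, 2 and 12 could not be told apart, and Cxcr3 passed the filter on low counts in no comparison between conditions.

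Cells with Cxcr3 in cluster 8 were mostly cells with T cell RNA. Of its 462 cells 173 held a T cell marker UMI, and 10 of these (5.78%, interval 2.81 to 10.4) held Cxcr3, against 1 of the 289 others (0.346%, interval 0.0088 to 1.91), at median depths of 819 and 1125 UMIs. In cluster 2, 12 of 315 cells with a T cell marker UMI (3.81%) held Cxcr3, against 8 of 1481 without (0.540%), at 2515 and 1321 UMIs. In cluster 2, 13 of the 20 Cxcr3-positive cells carried a CD3e tag and 6 carried at least 10 CD4 tags, and their median depth was 3323.5 UMIs against 1484.5 for the cluster. Ifng, the gene of interferon gamma, had 6 and 9 UMIs in cluster 8 of metastasis 1 and 2, of 8 and 14 in those whole brains. Ifnb1, the gene of interferon beta, had 12 and 7 UMIs in metastasis 1 and 2, 3 and 5 of them in cluster 3 and 4 and 2 in cluster 2.

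Across the 13 clusters of the brains with metastases, the genes with the profile most like that of Cxcl10 were Arrdc1, Plcg2, Ccrl2, Snx10 and Arhgap26 (Pearson r of 0.97 to 0.98 on log2(CPM + 10), among 5310 genes of at least 50 CPM in a cluster). Ccrl2, for example, was at 178 CPM in cluster 2, 185 in cluster 12 and 3.89 in cluster 3. Among the genes with the profile most like that of Cxcl9 were Serpina3g, Fam26f, Cap1 and Mx1 (r of 0.93 to 0.95). Cxcr3 came nearest to Cd2, Cst7, Lat, Ltb and Jaml (r of 0.98 to 0.99). Cxcl10 and Cxcl9 correlated at r = 0.60, Cxcl10 and Cxcr3 at 0.79, and Cxcl9 and Cxcr3 at 0.35. These are descriptions over 13 clusters that share 1 library and unequal depth. They rest in part on cluster 12, with 41 cells, where 1 UMI amounts to 14.2 CPM. Arrdc1, Plcg2 and Arhgap26 were highest there, at 71.0, 56.8 and 56.8 CPM, against 38.9, 41.3 and 26.4 CPM in cluster 2. Cd2, Cst7 and Lat were also highest there, at 56.8 CPM each. Cxcl10 itself had 46 UMIs in these cells, 28 of them in 1 cell, and Cxcr3 had 1.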

How the data were processed

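The deposited tables hold raw UMI counts per gene and per antibody tag for 12421 single cells, with a table of the authors' hashing assignment, clusters and mitochondrial percent per cell. Per the submitters' processing notes, Cell Ranger 3.0.2, Seurat 3.0.1 and build mm10 were used. The authors' cell filter is not stated in these sources. The deposited cells had at least 500 UMIs and at most 24.9 percent mitochondrial UMIs, and only singlets by hashing; droplets holding 2 cells of the same brain were not sought.

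The brain was the replicate (2 with metastases, 2 naive). Nothing says how animals were housed or processed in batches, so p-values between conditions measure the spread between these brains. Those between positive and negative cells, fitted with brain as a block, rest on the 2 brains with metastases. Their spread was estimated with information shared over all genes tested, and counting error enters it. A small p-value there is no measure of how alike these 2 brains were. Counts were summed per brain and cluster, or per brain and class, and fitted with edgeR 4.0.16 (TMM, filterByExpr, quasi-likelihood test, Benjamini-Hochberg adjusted p at or under 0.05 over all genes tested); DESeq2 1.42.0 was an alternative. A cluster needed 20 cells in each brain, which clusters 6, 7, 9 and 11 met; 15 were allowed for clusters 8 and 12. In clusters 6, 7, 9 and 11 Cxcl9, Cxcl10 and Cxcr3 did not pass the filter on low counts. The Cxcl9 comparison was planned on thinned cells and made on all UMIs because only metastasis 2 then had 20 positive cells. The comparison of Cxcr3-positive with Cxcr3-negative cells of cluster 8 was not made, since metastasis 1 had 2 and metastasis 2 had 8 such cells. The scripts were tested on simulated data.

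Genes named are the 15 highest and 10 lowest by log2 fold change, besides members of the lists. The highest and lowest were taken among genes called with the same direction in both brains and a mean of at least 50 CPM. Acod1 and Batf3, with means under that limit, are given in addition and were chosen after their values were seen. The genes described, the lists and the markers were chosen with earlier results of these data known, and no list was tested as a set. Of the RefSeq promoter windows, those of 2826 of the 3532 genes tested for Cxcl10 matched by symbol. The motifs were picked after the sequences were read. 1 gene with a profile like that of Cxcl9 is not reported here.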

Additional observations from a re-analysis of the deposited data

How the results depend on the processing

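The comparison of Cxcl10-positive with Cxcl10-negative cells gave 22 genes higher with no filter on low counts, 5 higher and 0 lower with DESeq2 (27 higher and 4 lower at an unadjusted p under 0.05), and 9 higher and 1 lower without the brain block. It gave 35 higher and 3 lower with positive cells from 2 UMIs on, 24 and 4 after thinning to 500 UMIs, 2 lower with another random seed (43 higher) and 205 and 68 with no thinning. Macrophage-leaning cells gave 4 higher and 1 lower, monocyte-leaning cells 34 higher. The 15 genes named as highest kept a positive log2 fold change wherever they had a value. After thinning to 500 UMIs Uqcc3 turned to 0.17 and Eef1d to 0.076, and with no thinning C1qc turned to 0.073, H2-Ab1 to 0.067 and H2-Eb1 to 0.065, while Cxcl9 was 1.26 and called. The causes were not tested.

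In cluster 12 the counts were 10 higher and 87 lower with no filter, 3 and 20 with DESeq2, and 2 and 6 among cells with fewer than 10000 UMIs; with under 1% neutrophil marker UMIs 84 were lower. Leaving out 1 brain at a time gave 0 to 73 higher and 0 to 143 lower, and a Cxcl10 log2 fold change of 3.08 to 4.81, of which the values without naive 1 and without naive 2 were not called. With only cells of at least 1000 UMIs, Cxcl10 did not pass the filter on low counts there.

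The comparison of Cxcl9-positive with Cxcl9-negative cells was the most dependent on its settings. It gave 10 lower with RLE scaling, 12 higher with no filter, 5 higher and 0 lower with DESeq2 (33 and 20 at an unadjusted p under 0.05), 0 and 0 with edgeR without the brain block (176 and 173), 16 higher without cells holding Krt8 or Krt18, 1 and 0 without cells holding T cell markers, and 1 and 3 after thinning with at least 15 positive cells. Cxcl10 had a log2 fold change of 0.55 in the last of these, 0.83 with DESeq2 and 0.82 without the block, not called in any of the 3. In metastasis 2 alone it was 0.39 after thinning to 1000 UMIs, 0.27 with another seed and 1.12 in macrophage-leaning cells. In metastasis 2 alone some genes turned. After thinning to 1000 UMIs these were Serpina3g (-0.58), Psmb9 (-0.26) and Krt8 (0.038). After thinning to 500 UMIs they were Zbp1 (-0.0052), H2-Ab1 (-0.13), Psmb9 (-0.36), H2-T23 (-0.15), Rhox5 (0.073) and Psmb8 (-0.70). With another seed they were H2-T22 (-0.36), Psmb9 (-0.18), H2-T23 (-0.087), Esx1 (0.16) and Ccl5 (-0.059), and in monocyte-leaning cells Fam26f (-0.17) and Rsad2 (-0.28). Thinning with at least 15 positive cells turned Krt8 (0.27) and Rsad2 (-0.14). The causes were not tested.

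Thinned to 500 UMIs, the mean share of Cxcl10-positive cells was 13.7% in cluster 2, 1.31% in cluster 3, 3.21% in cluster 8, 3.13% in cluster 10 and 9.77% in cluster 12, and in cluster 2 that of Cxcl9 was 2.05% and that of Cxcr3 0.235%. Only 2 brains per condition, in 1 library, and 887 naive cells limit every comparison of conditions. Removing cells with any Krt8, Krt18 or Ttr UMI was not run because too few cells remained. No paired analysis was possible between conditions because the brains are different animals and their numbers only name them.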
